A study of Mus musculus with 3 samples.

Results

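The E protein and ID genes form a set of 7, made of the E proteins Tcf3, Tcf4 and Tcf12 and the inhibitors Id1, Id2, Id3 and Id4. They were taken by gene symbol, and each symbol matched 1 of the 23282 entries measured. Their mRNA was measured in 3 bone marrow libraries from wild type male mice of the inbred strain C57BL/6. The mice, 6 weeks old, received sterile water by oral gavage for 28 days, and marrow was taken on day 29 and its red blood cells were lysed. Sterile water is the vehicle of a study of Asari Radix et Rhizoma, a herbal medicine made from wild ginger root, whose treated arm was not analysed here, so no value compares treatments. Whether each library is a different mouse is not stated in the labels, and p-values measure only the spread between these samples, which may be technical.

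E proteins are basic helix-loop-helix transcription factors that bind E-box DNA (CANNTG) as dimers, either with one another or with lineage partners such as TAL1. ID proteins carry the helix-loop-helix but no basic DNA-binding region, so a dimer of an E protein with an ID protein does not bind DNA. Tcf3 (which encodes E12 and E47 by alternative splicing) is required for B cell commitment. Tcf4 (E2-2) is required for plasmacytoid dendritic cells and Tcf12 (HEB) for T cell precursors. Id2 is required for natural killer and other innate lymphoid cells, and Id1 and Id3 are well known targets of BMP signalling. The symbols are close to those of an unrelated family of Wnt effectors, whose Tcf7l1 and Tcf7l2 have also been called TCF3 and TCF4. Tcf7l1 and Tcf7l2 had entries of their own and are not counted here.

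The libraries held 9168435, 8104828 and 9137125 reads assigned to genes in vehicle replicates 1, 2 and 3. Levels are given as reads per 1000000 of these reads (CPM). The library kit reads the polyadenylated end and gives about 1 fragment per transcript, so levels of different genes were compared in CPM with no length correction. A count of 0 allowed up to 0.327, 0.370 and 0.328 CPM (3 counts), and intervals and this limit cover counting error only. Granulocyte and red cell transcripts dominated, with 10 neutrophil markers summing to between 69822 and 92243 CPM and 10 erythroid markers to between 67321 and 100725 CPM. Per library total, replicate 1 exceeded the other libraries by 0.14 on the log2 scale for the median of 7128 genes with at least 300 reads, and trimmed-mean (TMM) scaling brought this to 0.00. Values are therefore given on library totals, with TMM values for the main comparisons. Where no TMM value is given, the order of libraries or a call can differ with TMM scaling.

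Tcf4 and Id2 were the most abundant members, and each family had 1 gene that held most of its reads. Tcf4 had 240, 240 and 210 CPM in replicates 1, 2 and 3, from 2202, 1943 and 1919 reads, a mean of 230.0 ± 17.3 CPM (SD, n = 3). Id2 had 191, 177 and 223 CPM, from 1755, 1436 and 2035 reads, a mean of 197 ± 23.3 CPM. These means placed Tcf4 at rank 437 and Id2 at rank 542 of the 23282 entries. Tcf3 had 121, 110 and 87.7 CPM, a mean of 106 ± 16.9 CPM. Tcf12 had 96.5, 77.2 and 62.6 CPM, a mean of 78.8 ± 17.0 CPM. Both were below Tcf4 and Id2 in every library. Id1 had 22.6, 20.9 and 20.6 CPM, a mean of 21.3 ± 1.08 CPM, and Id3 had 9.71, 5.80 and 7.11 CPM, a mean of 7.54 ± 1.99 CPM. Id4 had 2, 6 and 0 reads, too few to be tested, and the count of 0 in replicate 3 allows a level of up to 0.328 CPM. The antisense entry that overlaps Id4, A330033J07Rik, had 0 reads in each library.

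**Figure D1:**
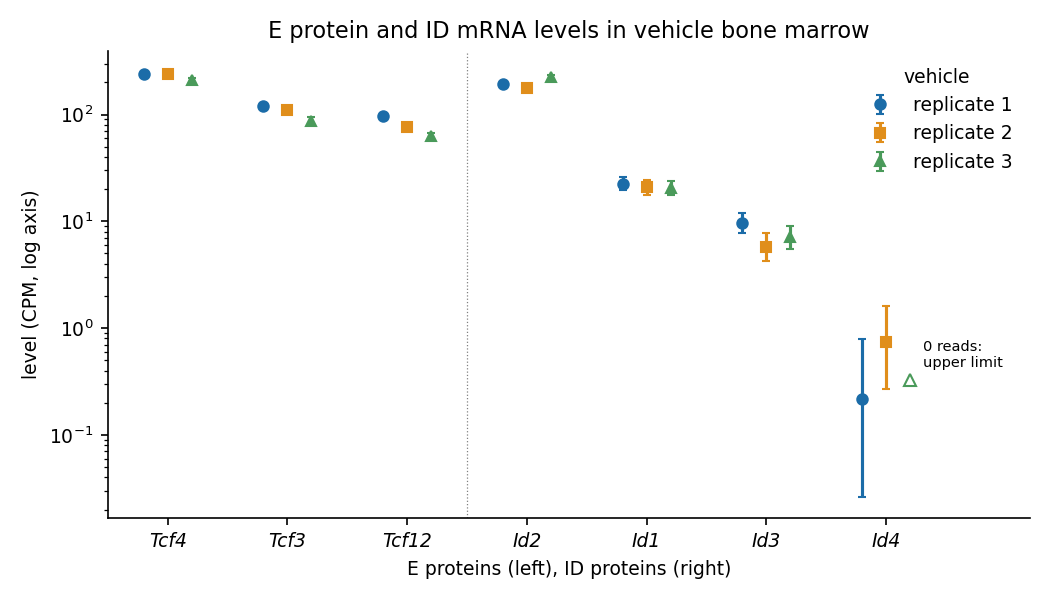
Level of each member in each vehicle library, in CPM on a log axis, with exact 95% Clopper-Pearson intervals as bars. Tcf4 and Id2 lie between 177 and 240 CPM, Tcf3 and Tcf12 between 62.6 and 121 CPM, and Id1 and Id3 between 5.80 and 22.6 CPM. The open symbol for Id4 is the 0.328 CPM that a count of 0 allows in replicate 3 by the limit of 3 counts, not a Clopper-Pearson bound.

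The order of levels was Tcf4, Id2, Tcf3, Tcf12, Id1, Id3 and Id4, and 4 of its 6 neighbouring pairs had ranges over the libraries that did not overlap. The ranges of Tcf4 and Id2 overlapped, and their order held in 2 of 3 libraries, since Id2 exceeded Tcf4 in replicate 3. The ranges of Tcf3 and Tcf12 also overlapped across libraries, but within a library Tcf3 was the higher of the pair in 3 of 3. With 3 libraries the smallest two-sided exact sign-flip permutation p is 0.25, so no order could pass 0.05. The gap between Tcf12 and Id1 was wide, with Tcf12 at 4.28, 3.70 and 3.04 times the reads of Id1 in replicates 1, 2 and 3. Within the ID family Id2 held 87.0% ± 1.76 of reads (SD, n = 3), Id1 9.50% ± 1.11 and Id3 3.34% ± 0.864. Within the E proteins Tcf4 held 55.6% ± 2.94, Tcf3 25.5% ± 1.07 and Tcf12 18.9% ± 1.97. The gene-level entries do not separate E12 from E47 or the other isoforms.

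All the E protein genes were lowest in replicate 3. Differences between libraries were tested against counting noise with an exact binomial test on 11833 genes with at least 30 reads and Benjamini-Hochberg adjustment over all of them, and a gene is called where the adjusted p is under 0.05. This test called 56.5% of all genes tested and 51.8% with TMM scaling, so a call by itself does not set a gene apart. Of the 6 members tested, 5 were called, and 4 with TMM scaling. Other settings called 45.8% to 60.6% of all genes, at 51.8% to 52.2% for the other scalings, 54%, 60.6% and 45.8% for minimums of 10 reads, 100 reads and none, and 58.9% for a chi-square test. Comparing only 2 libraries it called 34.8%, 39% and 38.5% without replicates 1, 2 and 3, and 34.2% without replicate 3 with TMM. The 3 E proteins were called and lowest in replicate 3 on both scales, a pattern found in 26.2% of tested genes on library totals and in 16.3% with TMM scaling. Tcf3 had a 1.38-fold range (exact binomial adjusted p = 6.57e-10, and 1.59e-05 with TMM). Tcf12 had a 1.54-fold range (exact binomial adjusted p = 1.26e-11, and 1.74e-06 with TMM), and Tcf4 a 1.14-fold range (adjusted p = 1.96e-05, and 0.00626 with TMM). The highest library of Tcf4 was replicate 1 on library totals and replicate 2 with TMM scaling. Without replicate 3, Tcf3 and Tcf4 were not called (exact binomial adjusted p = 0.0785 and 0.988), while Tcf12 was (0.000143). With TMM scaling and without replicate 3, Tcf4 and Tcf12 were called (exact binomial adjusted p = 0.0270 and 0.0280), and Tcf3 was not (0.885).

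Id2 went the other way and was highest in replicate 3. Its range was 1.26-fold on library totals (exact binomial adjusted p = 2.53e-09) and 1.30-fold with TMM scaling (1.85e-17), with the lowest level in replicate 2 on library totals and in replicate 1 with TMM. A call with the highest level in replicate 3 was made for 10.5% of tested genes on library totals and for 17.8% with TMM scaling. Without replicate 3 Id2 was not called (exact binomial adjusted p = 0.0730). Id1 was not called (exact binomial adjusted p = 1), and its coefficient of variation (CV) of 5.09% was under the 7.29% that counting error alone gives at its depth. Id3 was called on library totals, highest in replicate 1 and lowest in replicate 2 (exact binomial adjusted p = 0.0338). It was not called with TMM scaling (0.158), the authors' scaling (0.158), without replicate 1 (0.448) or without replicate 2 (0.128). Without replicate 3 it was called on library totals (exact binomial adjusted p = 0.0151) but not with TMM scaling (0.0553). A chi-square test on library totals also called it (adjusted p = 0.0211). Its 89, 47 and 65 reads allow little precision.

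**Figure D2:**
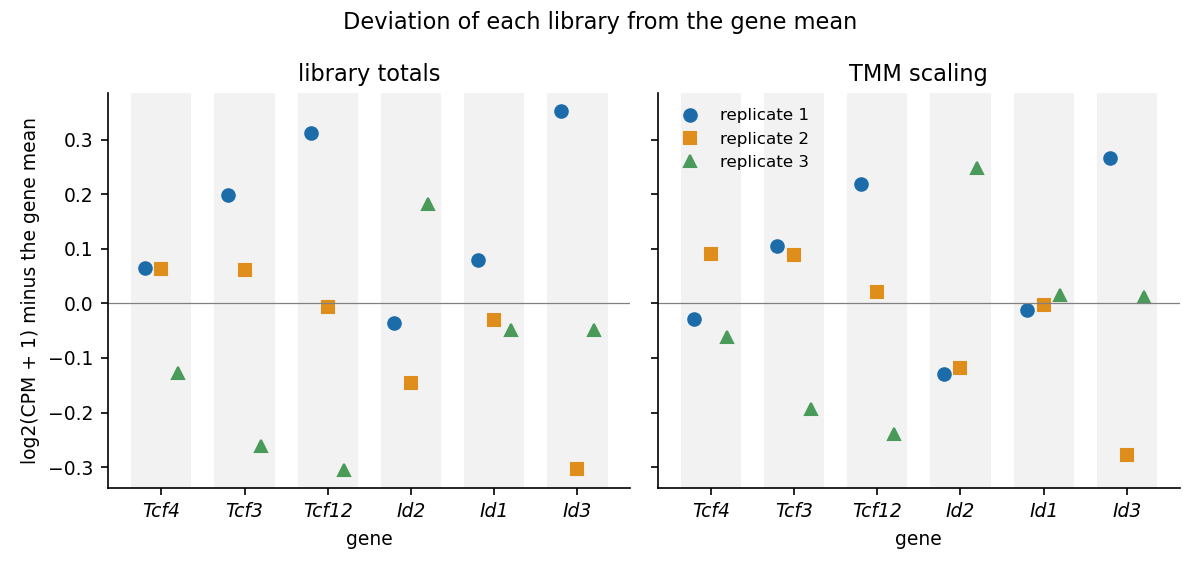
Deviation of log2(CPM + 1) from the mean of each gene in the 3 vehicle libraries, on library totals (left) and with TMM scaling (right), without Id4. Replicate 3 is the lowest library for Tcf4, Tcf3 and Tcf12 and the highest for Id2 in both panels, and the 3 libraries of Id1 nearly coincide with TMM scaling.

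Many other genes shifted as far in replicate 3 as the members did. With TMM scaling the log2 level in replicate 3 minus the mean of replicates 1 and 2 was -0.29 for Tcf3, -0.36 for Tcf12 and -0.09 for Tcf4. Of 7128 genes with at least 300 reads, 11.7% lay lower than Tcf3, 7.56% lower than Tcf12 and 33.6% lower than Tcf4. Tcf4 was thus well inside the bulk of genes. For Id2 the difference was 0.37, and 8.96% of those genes lay higher. Id1 and Id3, at 0.02 and 0.02, were next to the median gene at 0.01. The CVs of Tcf3, Tcf12 and Id2 on library totals were 16.0%, 21.6% and 11.8%, against a median of 13.2% over the genes with at least 300 reads and of 17.1% over all tested genes.

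**Figure D3:**
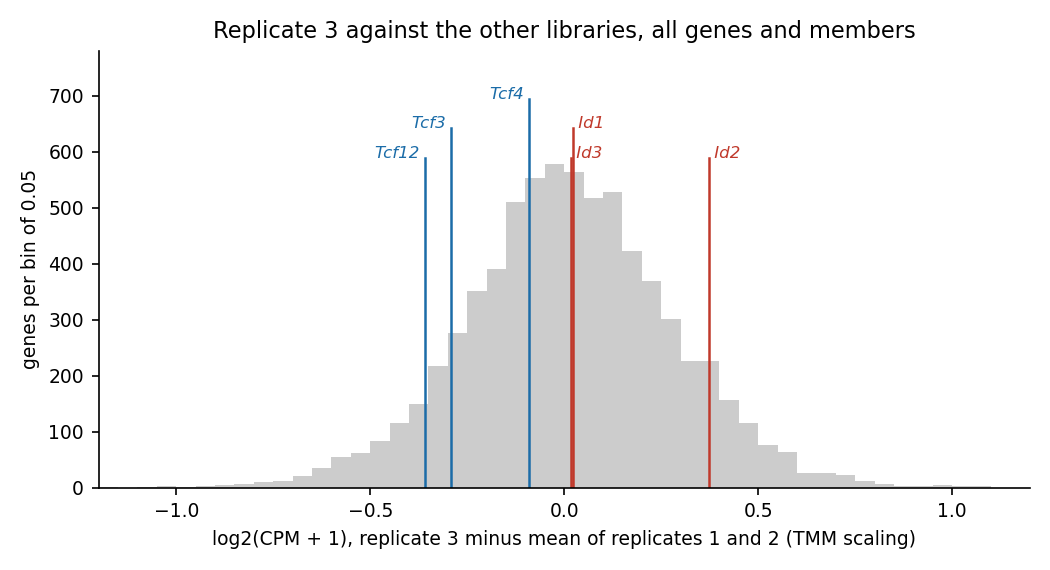
Histogram of log2(CPM + 1) in replicate 3 minus the mean of replicates 1 and 2, with TMM scaling, for 7128 genes with at least 300 reads, with vertical lines at the 6 tested members (their height carries no value). Tcf12 and Tcf3 lie in the lower flank and Id2 in the upper flank, while Tcf4, Id3 and Id1 lie in the bulk.

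The ratio of ID to E protein reads, which does not depend on how libraries are scaled, was highest in replicate 3. It was 0.489, 0.479 and 0.695 in replicates 1, 2 and 3, with exact 95% intervals of 0.464 to 0.516, 0.452 to 0.508 and 0.659 to 0.733. Replicates 1 and 2 had overlapping intervals and replicate 3 stood above both, at 1.44 times their mean. The mean over libraries was 0.555 ± 0.122 (SD, n = 3), so E protein reads outnumbered ID reads in every library. The summed ID level was 224, 205 and 250 CPM and the summed E protein level 458, 427 and 360 CPM in replicates 1, 2 and 3, so both sums contributed to the ratio. Without Id2 the ratio was 0.0710, 0.0642 and 0.0769, and replicate 3 stood at 1.14 times the mean of the others. The ratio of Id2 to Tcf4 was 0.797, 0.739 and 1.06, with an interval in replicate 3 of 0.996 to 1.13 that includes 1. Id2 reached 1.58, 1.61 and 2.54 times the reads of Tcf3, and 1.98, 2.29 and 3.56 times those of Tcf12. In each ratio of Id2 to an E protein replicate 3 was highest, and its interval did not overlap the others.

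**Figure D4:**
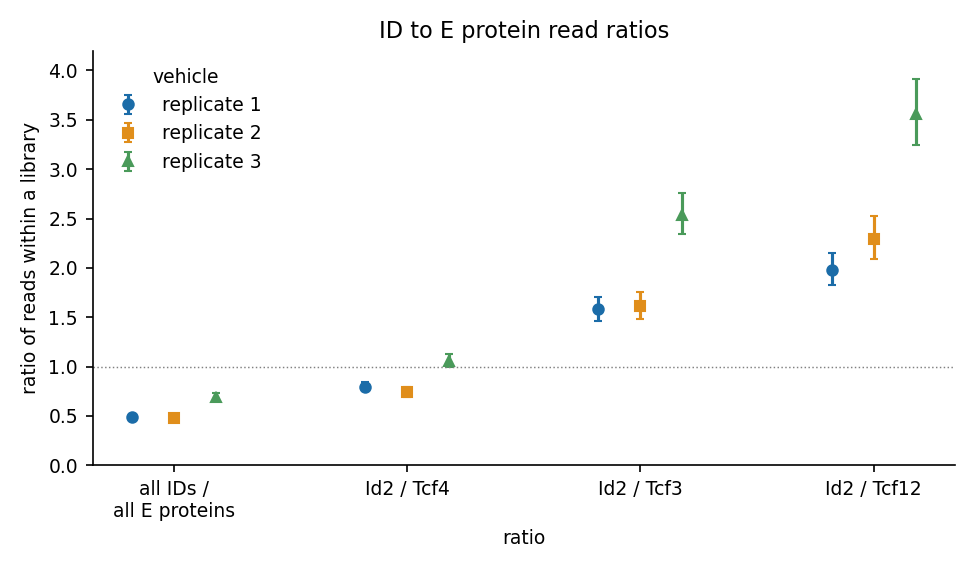
Ratios of reads within each vehicle library, for all IDs over all E proteins and for Id2 over each E protein, with exact 95% intervals for counting error as bars and a dotted line at 1. Replicate 3 is the highest library in each ratio, at 0.695 for the family sums, and the only one in which Id2 exceeds Tcf4.

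The start regions of Id2, Tcf3 and Tcf12 are shown because these are the tested members that lay furthest from the median gene in replicate 3, in opposite directions. They are the 250 bases before a RefSeq start site in GRCm38.p6, from chr12:25096093-25096342, chr10:80433636-80433885 and chr9:72111820-72112069, all on the minus strand. Tcf12 has several start sites in that table, and the outermost is shown. Capitals mark each match to the E-box core CANNTG, whose reverse complement is itself, so both strands are covered.
Id2: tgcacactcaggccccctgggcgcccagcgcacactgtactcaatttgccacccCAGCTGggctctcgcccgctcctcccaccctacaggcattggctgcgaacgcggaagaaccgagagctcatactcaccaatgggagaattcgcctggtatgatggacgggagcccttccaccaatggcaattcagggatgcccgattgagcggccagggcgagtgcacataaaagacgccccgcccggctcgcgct
Tcf3: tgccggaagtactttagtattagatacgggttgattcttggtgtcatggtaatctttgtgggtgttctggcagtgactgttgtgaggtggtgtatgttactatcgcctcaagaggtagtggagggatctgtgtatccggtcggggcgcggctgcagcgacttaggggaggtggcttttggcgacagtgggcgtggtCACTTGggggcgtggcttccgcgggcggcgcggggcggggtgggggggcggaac
Tcf12: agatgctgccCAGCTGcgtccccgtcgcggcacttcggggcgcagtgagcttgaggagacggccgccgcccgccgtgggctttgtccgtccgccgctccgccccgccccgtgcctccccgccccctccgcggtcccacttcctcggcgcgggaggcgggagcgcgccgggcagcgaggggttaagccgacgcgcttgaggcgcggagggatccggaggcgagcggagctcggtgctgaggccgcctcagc
Each sequence shown held 1 match, and 66.2% of 32851 start regions of this length hold at least 1. The match in Id2 and in Tcf12 was CAGCTG, found in 13.0% of start regions, and that in Tcf3 was CACTTG. Of the other start regions of Tcf12 in that table, 1 held a single match that was not CAGCTG and 1 held none. A match is a stretch of letters and does not show binding.

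Id2 is encoded on chromosome 12 (GRCm38, 25093799 to 25097140, minus strand), Tcf3 on chromosome 10 (80409514 to 80433647, minus strand) and Tcf12 on chromosome 9 (71842688 to 72111871, minus strand). Id1 lies on chromosome 2 (152736251 to 152737410), Id3 on chromosome 4 (136143497 to 136145755), Id4 on chromosome 13 (48261228 to 48266026) and Tcf4 on chromosome 18 (69343356 to 69689079), all on the plus strand. The ID genes span at most 4799 bases each, whereas Tcf12 and Tcf4 span 269184 and 345724 bases. Tcf12 contains pseudogene, miRNA and unconfirmed transcript annotations and Tcf4 an rRNA annotation, which were not separated from them here.

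Partners and cofactors that act with E proteins did not share 1 direction. Of 16 class II partners, which dimerise with E proteins, 3 had at least 30 reads and 7 had 0 reads in each library. Tal1, required for the origin of blood stem cells, had 125, 124 and 104 CPM and was called on both scales (exact binomial adjusted p = 4.68e-05, and 0.0364 with TMM), but not without replicate 3. Its close relative Lyl1 had 59.2, 51.9 and 55.7 CPM and was not called (exact binomial adjusted p = 0.314). Of the 8 genes of the TAL1 and E protein complex, 5 were called, near the share over all genes (56.5%), and 2 of these were lowest in replicate 3. Without replicate 3 the count was 3, when 38.5% of all genes were called. The bridging factor gene Lmo2 had 100.5, 121 and 104 CPM, and Ssbp3, which stabilises the complex, 73.1, 84.9 and 87.1 CPM. Both were lowest in replicate 1, unlike Tal1. Of 9 coregulator genes 6 were called, again near the 56.5% over all genes. Without replicate 1 the count was 2, when 34.8% of all genes were called. Among the 6 was the acetyltransferase gene Crebbp at 240, 234 and 200 CPM. The corepressor gene Ncor1 had 700.3, 655 and 662 CPM, and the acetyltransferase gene Ep300 had 162, 178 and 147 CPM. With TMM scaling Ncor1 and Ep300 were both lowest in replicate 1.

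Genes of the B lineage, many of them E protein targets, were mostly lowest in replicate 3 as well. Of 16 such genes 14 were called, against 56.5% over all genes, 11 of them with the lowest level in replicate 3. With TMM scaling 13 were called, against 51.8% over all genes, and 10 were lowest there. Over all tested genes a call with the lowest level in replicate 3 was made for 26.2%, and for 16.3% with TMM scaling. Without replicate 3 the number of B lineage genes called was 5, when 38.5% of all genes were called. Ebf1, which works with Tcf3 in B cell commitment, had 158, 160 and 104 CPM. The B cell receptor gene Cd79b had 136, 141 and 121 CPM, and the coactivator gene Pou2af1 118, 116 and 95.9 CPM. The list summed to 1184, 1115 and 909 CPM in replicates 1, 2 and 3, and no member was at 0. In bulk marrow fewer cells of a type and less RNA per cell cannot be told apart, and the part of B lineage cells in the E protein levels was not tested. Stroma and endothelium genes were also low in replicate 3, at summed levels of 327, 286 and 227 CPM. Of 10 tested 6 were called, against 56.5% over all genes, each with the lowest level in replicate 3. Without that library 2 were called, when 38.5% of all genes were. With TMM scaling the median log2 difference of replicate 3 from the other libraries was -0.56 for these genes and -0.22 for the B lineage genes, against 0.01 for all tested genes. The chemokine gene Cxcl12 had 139, 134 and 110 CPM and the collagen gene Col1a2 94.2, 72.8 and 52.6 CPM. Endothelial genes did not share 1 direction. Pecam1 had 28.2, 25.5 and 32.3 CPM and Plvap 3.16, 3.21 and 3.50 CPM, both highest in replicate 3. Kdr had 3.71, 4.94 and 1.97 CPM and Cdh5 3.05, 2.71 and 1.31 CPM, both lowest there. Of these only Kdr was called on library totals (exact binomial adjusted p = 0.0134), and Pecam1 and Kdr were called with TMM scaling (0.00665 and 0.0338). The part of stroma in the E protein levels was not tested. E protein reads amounted to 38.7%, 38.3% and 39.6% of B lineage reads. This range was 1.04-fold, against 1.27-fold per library total and 1.15-fold with TMM scaling. The sum combined members that did not move together. Tcf4 amounted to 20.3%, 21.5% and 23.1% of B lineage reads, highest in replicate 3. Its 1.14-fold range was as wide as per library total and wider than the 1.11-fold range with TMM scaling. Tcf12 amounted to 8.16%, 6.92% and 6.88%, a 1.18-fold range, and Tcf3 to 10.2%, 9.85% and 9.64%, a 1.06-fold range, both lowest in replicate 3. Id2 reads amounted to 16.2%, 15.9% and 24.5% of B lineage reads. Id2 was still highest in replicate 3 on this scale.

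Genes of the plasmacytoid dendritic cell programme, which depends on Tcf4, did not share 1 direction. The 14 genes summed to 799, 814 and 780 CPM, and of 13 tested 6 were called, against 56.5% over all genes. Among the 6, 2 were lowest and 2 highest in replicate 3, against 26.2% and 10.5% of all tested genes. With TMM scaling 8 were called, against 51.8% over all genes, 2 of them lowest and 3 highest there. Without replicate 2 the number called was 3, when 39% of all genes were called. Irf8, a factor of dendritic cell and monocyte development, had 318, 333 and 313 CPM and was called with TMM scaling alone (exact binomial adjusted p = 0.0964 on library totals). The lymphoid surface gene Ly6d had 168, 191 and 168 CPM, and Spib, a transcription factor gene of these cells and of B cells, 124, 106 and 90.4 CPM. Of these 3 genes, Spib was lowest in replicate 3 on both scales, and Irf8 and Ly6d were lowest in replicate 1 with TMM scaling. The receptor gene Tlr9 had 0 reads in each library.

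Natural killer and innate lymphoid genes, a setting in which Id2 is required, were low. The 12 genes summed to 133, 125 and 131 CPM, less than Id2 alone in each library. Of 11 tested 7 were called, against 56.5% over all genes, 1 with the highest and 3 with the lowest level in replicate 3. Over all tested genes such calls were made for 10.5% and 26.2%. Without replicates 2 and 3 the counts were 3 and 4, when 39% and 38.5% of all genes were called. The granule gene Nkg7 had 51.5, 36.2 and 55.3 CPM, Nfil3, a factor upstream of Id2 in these cells, 27.8, 21.0 and 26.9 CPM, and the cytokine receptor gene Il2rb 12.2, 17.3 and 16.7 CPM. Monocyte and macrophage genes summed to 1540, 1458 and 1575 CPM, and did not share 1 direction. Of 10 tested 8 were called, against 56.5% over all genes, 4 with the highest and 4 with the lowest level in replicate 3. Without replicates 1 and 3 the counts were 5 and 2, when 34.8% and 38.5% of all genes were called. Ly6c2, a surface marker of monocytes, had 439, 429 and 599 CPM, while the lysozyme gene Lyz2 had 377, 285 and 275 CPM and the adhesion gene Vcam1 184, 194 and 157 CPM. T cell genes summed to 23.5, 29.9 and 36.2 CPM, and megakaryocyte genes to 509, 416 and 413 CPM. With TMM scaling the neutrophil, erythroid, monocyte, natural killer and T cell sums were highest in replicate 3, like the ID sum. Their profiles otherwise differed. The ID sum on that scale was 210, 209 and 262 CPM. The neutrophil sum was 84284, 71180 and 96622 CPM, and each of its 10 genes was lowest in replicate 2. The erythroid sum was 63044, 101680 and 105507 CPM, lowest in replicate 1. All 10 genes of both lists were called on both scales, against 56.5% and 51.8% over all genes. For monocytes and natural killer cells the highest sum in replicate 3 rested on the most abundant gene. Without Ly6c2 the monocyte sum with TMM scaling was 1031, 1049 and 1022 CPM, lowest in replicate 3, and without Nkg7 the natural killer sum was 76.2, 90.9 and 79.4 CPM, highest in replicate 2. The neutrophil and T cell sums were highest in replicate 3 also without their most abundant gene, whereas the ID sum without Id2 was highest in replicate 1. Without its most abundant gene, Hba-a1, the erythroid sum with TMM scaling was 18452, 29275 and 29330 CPM, nearly equal in replicates 2 and 3. On library totals it was 19704, 28717 and 28000 CPM, highest in replicate 2. The part of these cell types in the Id2 level was not tested.

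**Figure D5:**
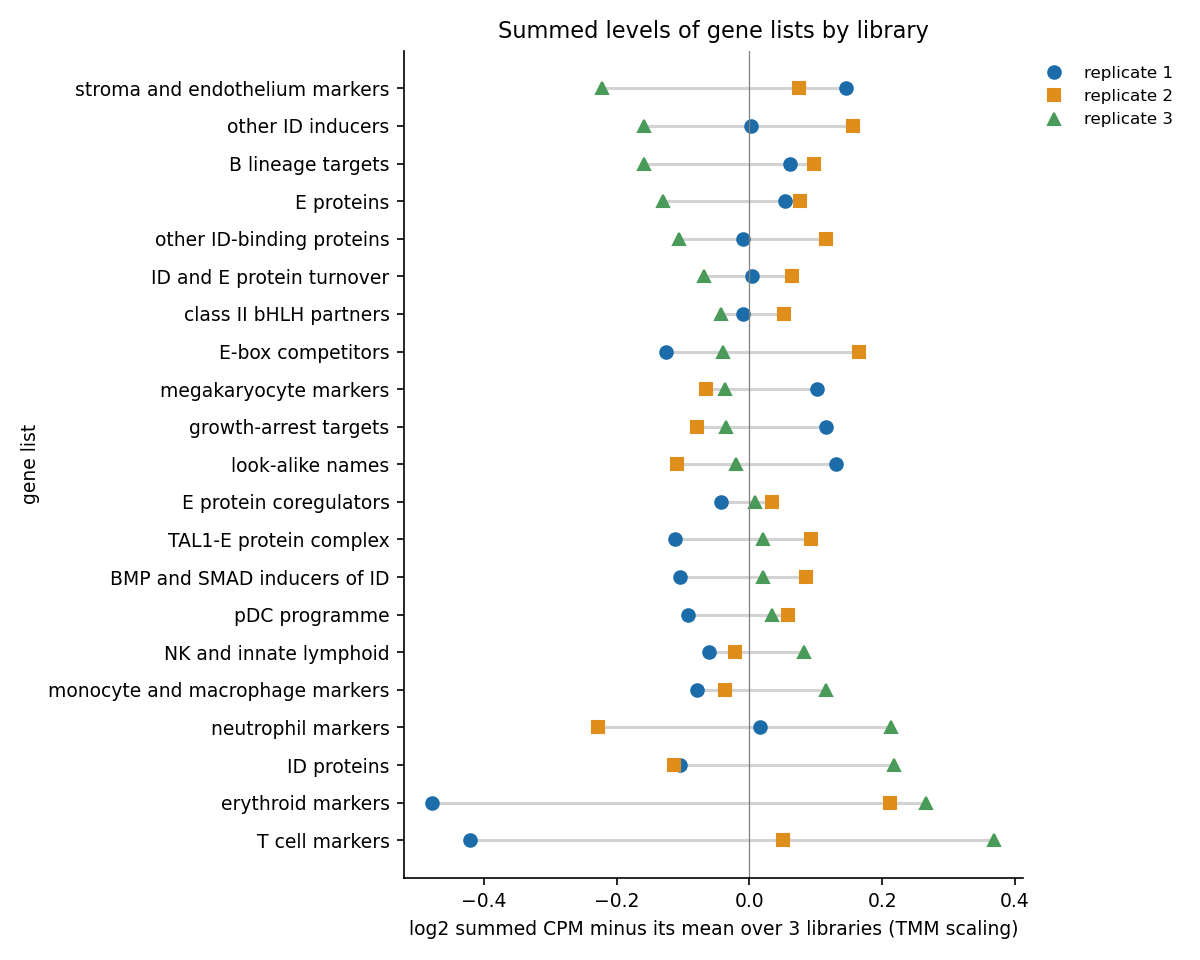
Summed level of each gene list in the 3 vehicle libraries with TMM scaling, as the log2 of the sum minus its mean over libraries. Replicate 3 is lowest for stroma and endothelium genes, other ID inducers, B lineage genes, E proteins, other ID-binding proteins, turnover genes and class II partners, and highest for ID proteins and the neutrophil, erythroid, T cell, monocyte and natural killer genes, of which the last 2 are not highest without Ly6c2 and Nkg7. Without Egr1, Usp1 and Tal1 the sums of other ID inducers, turnover genes and class II partners are not lowest in replicate 3.

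Genes of the BMP pathway, which induces Id1 and Id3, reached at most 43.6 CPM each. Some of them, such as Smad5 and Smad4, exceeded Id1 in every library. The 14 BMP and SMAD genes summed to 161, 169 and 157 CPM, and of 10 tested 4 were called, against 56.5% over all genes. Without replicate 1 the count was 2, when 34.8% of all genes were called. Smad5, a transducer of BMP signals, had 32.8, 43.6 and 32.6 CPM, and was lowest in replicate 1 with TMM scaling. The common mediator gene Smad4 had 39.8, 35.2 and 32.4 CPM, and the inhibitory SMAD gene Smad7 21.4, 19.2 and 20.2 CPM. The ligand gene Bmp6 had 0, 0 and 4 reads. Of 8 other inducer genes 5 were called, near the 56.5% over all genes. Without replicates 1 and 3 the counts were 2 and 3, when 34.8% and 38.5% of all genes were called. Egr1, an immediate early factor whose family induces Id3, had 346, 368 and 265 CPM (exact binomial adjusted p = 1.29e-33), the lowest level being in replicate 3.

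The genes whose profile over the 3 libraries was nearest to that of a member were Cbx3 and Ptprcap for Tcf3, Gabpb2 and Ttf2 for Tcf4, and 4833420G17Rik and Zfp710 for Tcf12. Those nearest to Id1 were Surf4 and Pmf1, and those nearest to Id2 were Gm1821, a ubiquitin pseudogene in RefSeq whose reads may be shared with its parent gene, and Emc2. Likeness was the Euclidean distance between centred log2(CPM + 1) values. With 3 libraries it is a weak criterion: between 191 and 876 of the 7128 genes lay within a distance of 0.1 of each member.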

How the data were processed

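Messenger RNA of 3 bone marrow libraries, all of 1 group, was profiled. RNA was extracted with Trizol and 500 ng went into Lexogen QuantSeq libraries, per the labels' protocols. Bowtie2, bedtools and mm10 are named in the submitters' processing notes. The annotation, the strand setting and how values were normalized is not given in the sources used here.

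The authors deposited 1 log2 value per gene and library, read from the values as log2(x + 1) of scaled reads per 1000000. Within a library 100% of values of 2 raised to the deposited value, minus 1, were whole multiples (tolerance 1e-06) of the value of 1 read, so reads were recovered. The design had assumed read counts or a substitute, and the tests ran on the recovered reads.

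Each library was tested against the other 2 with an exact two-sided binomial test, the smallest p was multiplied by 3, and Benjamini-Hochberg adjustment ran over genes with at least 30 reads. The test was tested on simulated data. TMM used trims of 30% and 5%. Intervals are exact 95% Clopper-Pearson intervals. Python 3.11.15, numpy 2.4.6 and scipy 1.17.1 were used. Positions are from GENCODE for GRCm38 and start regions from RefSeq for GRCm38.p6. Alternatives covered scaling, read minimum, test, pseudocount and left-out libraries.

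Members and gene lists were chosen with earlier results of these data known. Named genes were the members, the 3 most abundant genes of each list, look-alike symbols and the 2 nearest genes per member with at least 300 reads. Bmp6, Tlr9, A330033J07Rik, Kdr, Cdh5 and Plvap were chosen after the values were seen. So were the comparisons with B lineage reads, with list sums without their most abundant gene and with all genes in replicate 3. The planned protein comparison was not made. A withheld gene is not reported here.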

Additional observations from a re-analysis of the deposited data

How the results depend on the processing

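Of the 3 E proteins and Id2, each stayed called under the 4 other scalings, the 3 other read minimums and the chi-square test. Id3 was not called under the 4 other scalings, with adjusted p between 0.132 and 0.158, and Id1 was called under none. Leaving out 1 library moved the count of called genes to between 3866 and 4392, against 6687, and of called members to between 2 and 4, against 5, and 2 libraries give the test fewer reads. TMM without replicate 3, added after the data were seen, called 3841 genes and 2 members (Tcf4 and Tcf12, exact binomial adjusted p = 0.0270 and 0.0280). The mean ID to E protein ratio was between 0.484 and 0.592 with 1 library left out. It was 0.0707 without Id2, 1.26 without Tcf4 and, added after the data were seen, 0.743 without Tcf3 and 0.682 without Tcf12, changes that follow from the members removed. Replicate 3 stood at 1.14 times the other libraries without Id2, and at 1.40 to 1.57 times under the other 4 choices of members. The number of neighbouring pairs without overlap was between 4 and 6 with 1 library left out. No paired analysis was possible because there is only 1 group of libraries. List sums without their most abundant gene, an alternative added after the data were seen, are described beside some of the lists or in a figure caption. Depth limits Id3 and Id4, with 201 and 8 reads in total.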

Other observations

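Genes for the turnover of ID and E proteins were mostly lowest in replicate 3. Of 8 such genes 6 were called, against 56.5% over all genes, 5 of them lowest there. With TMM scaling 8 were called, against 51.8% over all genes, 5 lowest and 3 highest there. A call with the highest level there was made for 17.8% of all tested genes with TMM scaling. Over all tested genes a call with the lowest level in replicate 3 was made for 26.2%, and for 16.3% with TMM scaling. Without replicate 3 the number of turnover genes called was 3, when 38.5% of all genes were called. The TMM sum without Usp1 was 452, 482 and 459 CPM in replicates 1, 2 and 3, lowest in replicate 1. Usp1, which removes ubiquitin from ID proteins, had 257, 235 and 191 CPM in replicates 1, 2 and 3, and the ubiquitin ligase gene Huwe1 had 163, 162 and 133 CPM. Cdc20, an activator of the anaphase-promoting complex, had 104, 96.1 and 109 CPM and was called with TMM scaling alone (exact binomial adjusted p = 0.0716 on library totals). Of 7 genes for other ID-binding proteins, 6 were called, against 56.5% over all genes, and 5 of these were lowest in replicate 3. With TMM scaling 4 were called, near the 51.8% over all genes, and 3 were lowest there. Without replicate 3 the number called was 2, when 38.5% of all genes were called. Ets2 had 143, 139 and 119 CPM, Ets1 138, 125 and 116 CPM, and Rb1, the retinoblastoma gene whose product binds ID2, 62.4, 73.0 and 65.1 CPM. Ets2 and Ets1 were called on library totals but not with TMM scaling (exact binomial adjusted p = 0.0514 and 0.557).

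Growth-arrest genes, a class that E proteins can activate, were led by the cell cycle inhibitor genes Cdkn2d, at 131, 92.9 and 95.7 CPM, Cdkn1b, at 114, 86.5 and 101 CPM, and Cdkn1a, at 53.4, 50.1 and 46.8 CPM. Of 7 tested 5 were called, near the 56.5% over all genes, and 3 were called with TMM scaling, against 51.8% over all genes. Without replicates 1 and 3 the number called was 3 and 2, when 34.8% and 38.5% of all genes were called. Cdkn1a was not called on either scale. The E-box repressor gene Zeb2 had 170, 191 and 158 CPM, while Zeb1 had 38.1, 42.1 and 40.6 CPM and Snai1 2.62, 3.70 and 1.97 CPM. With TMM scaling Zeb2 was lowest in replicate 1, and Zeb1 was called on that scale alone (exact binomial adjusted p = 0.0350). Among look-alike symbols, Tcf7l2 had 23.8, 18.4 and 23.1 CPM and Tcf7l1 3.05, 4.57 and 3.17 CPM, far below Tcf4 and Tcf3. Tcf25, Tcf20 and Lef1, also outside the E protein family, had means of 188, 34.8 and 28.1 CPM. With TMM scaling the CV of Id1 was 0.990%, against 7.29% from counting error alone, a closeness of 3 values that was not tested.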
